A study of Mus musculus with 24 samples.

Results

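The cell cycle and DNA replication genes described here are 42 protein-coding genes of the mouse, chosen by name as the usual readouts of licensing, S phase and mitosis. All 42 were found among the 35275 genes of the read count table. They were measured by RNA-seq of whole liver from male C57BL/6 mice aged 8 to 10 weeks, all on a chow diet and all fasted for 24 h, in 6 genotype groups of 4 libraries each. Control mice, labelled wild type, were described in the study's methods as Tsc1 f/f Cpt2 f/f littermates. Tsc1 L-/- mice lack Tsc1, the negative regulator of mTorc1, in liver. Cpt2 L-/- mice lack Cpt2, which long-chain fatty acids need to be oxidized in mitochondria, and DKO mice lack both. These deletions were made with Albumin-Cre, which acts in hepatocytes, so that other liver cells keep the floxed alleles. Ppara KO mice carry a knockout of the nuclear receptor Ppara, for which the labels name no tissue, and Cpt2 L-/- Ppara KO mice combine it with the liver deletion of Cpt2.

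A cell that commits to division passes through a fixed order of steps. Cyclin D and cyclin E release E2F transcription factors, which switch on the genes for replication and deoxynucleotide synthesis. Cdt1 and Cdc6 load the Mcm2-7 helicase on origins, Cdc45 and the GINS complex activate it, and Pcna clamps the polymerases to the template. Cyclin A, cyclin B, Cdk1, Foxm1 and the Aurora and Polo kinases then carry the cell through mitosis. Adult hepatocytes rarely divide, and many are polyploid, having replicated their DNA without completing division. E2f8, an atypical repressor of the E2F family, is known for its part in that polyploidization.

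The libraries held between 14470968 and 20371204 counted reads. Levels are given as CPM, the reads of a gene scaled to a common library size by trimmed-mean factors over all 24 libraries. Fold changes and adjusted p-values are from edgeR's quasi-likelihood test with Benjamini-Hochberg adjustment over all genes tested, and a gene was called at an adjusted p under 0.05. Tsc1 was lower in the deleted groups, at 24.5 CPM in Tsc1 L-/- and 16.4 in DKO against 38.4 in control. Ppara fell from 258 CPM in control to 27.3 in Ppara KO. Cpt2 counts did not check the Cpt2 L-/- label, since they were 91.6 CPM there against 98.6 in control. The library labelled Cpt2 L-/- Ppara KO replicate 1 stood apart, with Tsc1 at 23.8 CPM against 42.4 to 50.05 in the other 3 libraries of its group, Cpt2 at 123 against 31.4 to 39.1 and Ppara at 89.9 against 26.2 to 45.7. The library labelled Ppara KO replicate 1 held Cpt2 at 94.8 CPM against 39.8 to 51.4 in its group. Member counts that use these libraries are given with and without them. Control replicate 4 had a summed level of 38.2 CPM for 5 B cell markers, where the other 3 controls had at most 8.27. In whole liver, fewer cells of a type and less RNA per cell cannot be told apart.

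Many of these genes had low levels in the fasted liver. Of the 42, 21 had a median under 1 CPM over the 24 libraries, and only 16 had a mean of at least 1 in the deposited FPKM, the length-corrected unit that allows genes to be compared. Pcna was highest at a mean of 18.4 FPKM. E2f8 followed at 4.85, Mcm7 at 4.65, Ccnd1 at 4.53, Tk1 at 4.19 and Cdt1 at 2.45 FPKM. The order therefore began with replication, transcription factor, deoxynucleotide and G1 genes, and its lower end held mitotic genes together with Cdc6 and Foxm1. Mki67, the standard proliferation antigen, had a mean of 0.103 FPKM and Top2a, the topoisomerase that resolves sister chromatids, 0.131. Ccnb1, the mitotic cyclin B1, had 0.0708 FPKM, and Bub1, a spindle checkpoint kinase, was lowest at 0.0162. Of the 8 mitotic kinases, checkpoint proteins and ubiquitination factors, 7 had a median under 1 CPM, and of the 8 spindle and chromosome genes 6 did, whereas 3 of the 12 replication genes and none of the 4 deoxynucleotide genes did.

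**Figure D1:**
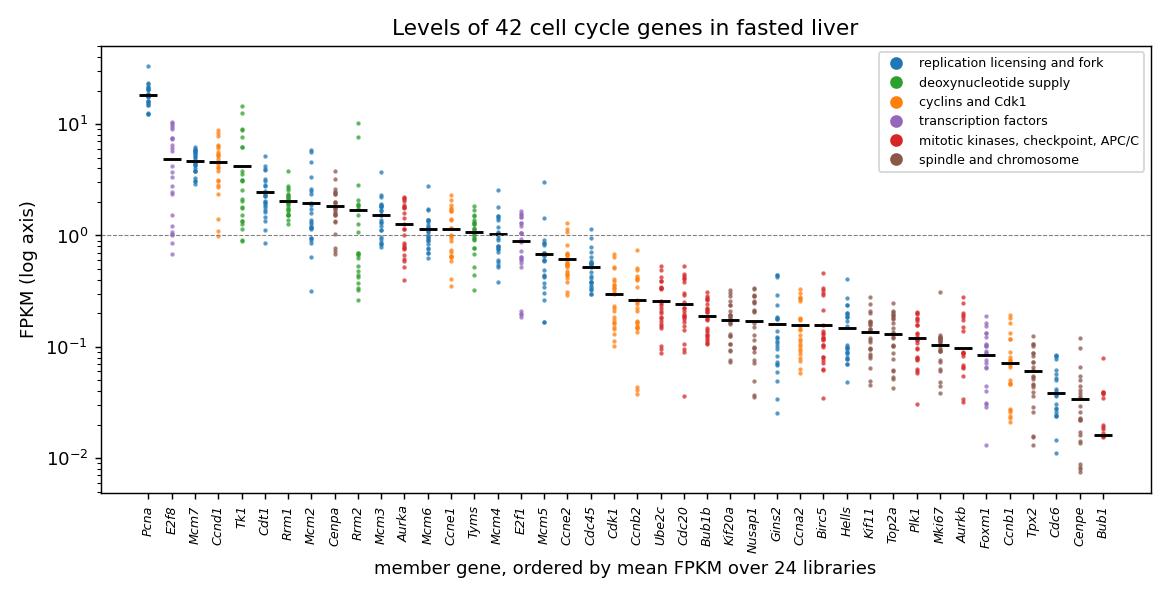
Deposited FPKM (log axis) of the 42 genes, each point 1 of 24 libraries and each bar the mean, with values listed at 0 not drawn and a dashed line at 1 FPKM. A mean of at least 1 FPKM was reached by 16 genes, led by Pcna at 18.4, and the mitotic genes other than Aurka and Cenpa lay below that line.

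The filter on low counts left 32 of the 42 genes for testing in the fit of the control, Tsc1 L-/-, Cpt2 L-/- and DKO libraries. The 10 left out were Cdc6, Ccna2, Ccnb1, Foxm1, Aurkb, Bub1, Plk1, Ube2c, Tpx2 and Cenpe, none of which passed 1.25 CPM in any of the 24 libraries. Ccnb1 ranged from 0 to 0.478 CPM over all libraries, with group means between 0.109 and 0.218. Bub1 had at most 3 reads in every library of 5 groups, and Ccnb1 and Cenpe in every library of 1 group each. Ube2c passed the filter in some of the Ppara fits and was not called there. With no filter on low counts all 42 were tested, and none of these 10 was called.

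Loss of Tsc1, and with it constitutive mTorc1 activity in the fasted state, was compared with control. Of the 32 genes 1 rose and 0 fell, while 6.64% of all 13641 genes tested were called, 4.16% higher and 2.48% lower. The libraries of the groups did not overlap for 2 of the 32 and for 12.1% of all genes. That gene was Ccne1, cyclin E1, the partner of Cdk2 at S phase entry. The median log2 fold change of the 32 was 0.00, and that of all genes tested was 0.01.

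Loss of Cpt2, and with it of hepatic fatty acid oxidation, gave 7 calls among the 32, 2 higher and 5 lower, beside 31% of all genes tested, 16.2% higher and 14.9% lower. The groups did not overlap for 7 of the 32, beside 30.9% of all genes. Mcm2 and Cdt1 rose, and Tk1, E2f1, Kif11, Cdk1 and Aurka fell. The genes called higher are licensing genes, and those called lower are a deoxynucleotide enzyme, an E2F activator, a spindle motor and mitotic kinases. The share of called members was not above that of the whole table, and the median over the members was -0.08 on the log2 scale against -0.02 over all genes.

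When both genes were lost, 8 genes were called relative to control, 6 higher and 2 lower, beside 36.4% of all genes, 19.3% higher and 17.1% lower. The groups did not overlap for 7 of the 32, beside 37.1% of all genes. Mcm2, E2f8, Cdt1, Ccne1, Mcm3 and Mcm6 rose, and Tk1 and Birc5 fell. Against Cpt2 L-/-, the comparison that adds Tsc1 loss to Cpt2 loss, 6 genes rose and 0 fell, beside 18.3% of all genes, 10.9% higher and 7.4% lower. They were E2f1, Cdk1, Mcm2, Ccne1, Aurka and Cdt1. That count fell to 2 without DKO replicate 1, DKO replicate 2 or Cpt2 L-/- replicate 3. Against Tsc1 L-/-, the comparison that adds Cpt2 loss to Tsc1 loss, 8 rose and 3 fell, beside 32.2% of all genes, 16.9% higher and 15.2% lower. The 8 were E2f8, Mcm2, Gins2, Mcm3, Mcm4, Mcm6, Cdt1 and Pcna, and the 3 were Tk1, Birc5 and Rrm2. DKO did not overlap Cpt2 L-/- for 9 of the 32 genes, beside 23.1% of all, nor Tsc1 L-/- for 7, beside 30.6%. These comparisons share the DKO libraries and are not independent of each other. The interaction of the Tsc1 and Cpt2 losses, which asks whether DKO departs from the sum of the single losses, was called in 0 of the 32 genes by edgeR and in 0 by DESeq2, beside 2.38% of all genes, 1.09% higher and 1.28% lower. At an unadjusted p under 0.05 there were 2 of the 32, beside 18.9% of all genes.

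**Figure D2:**
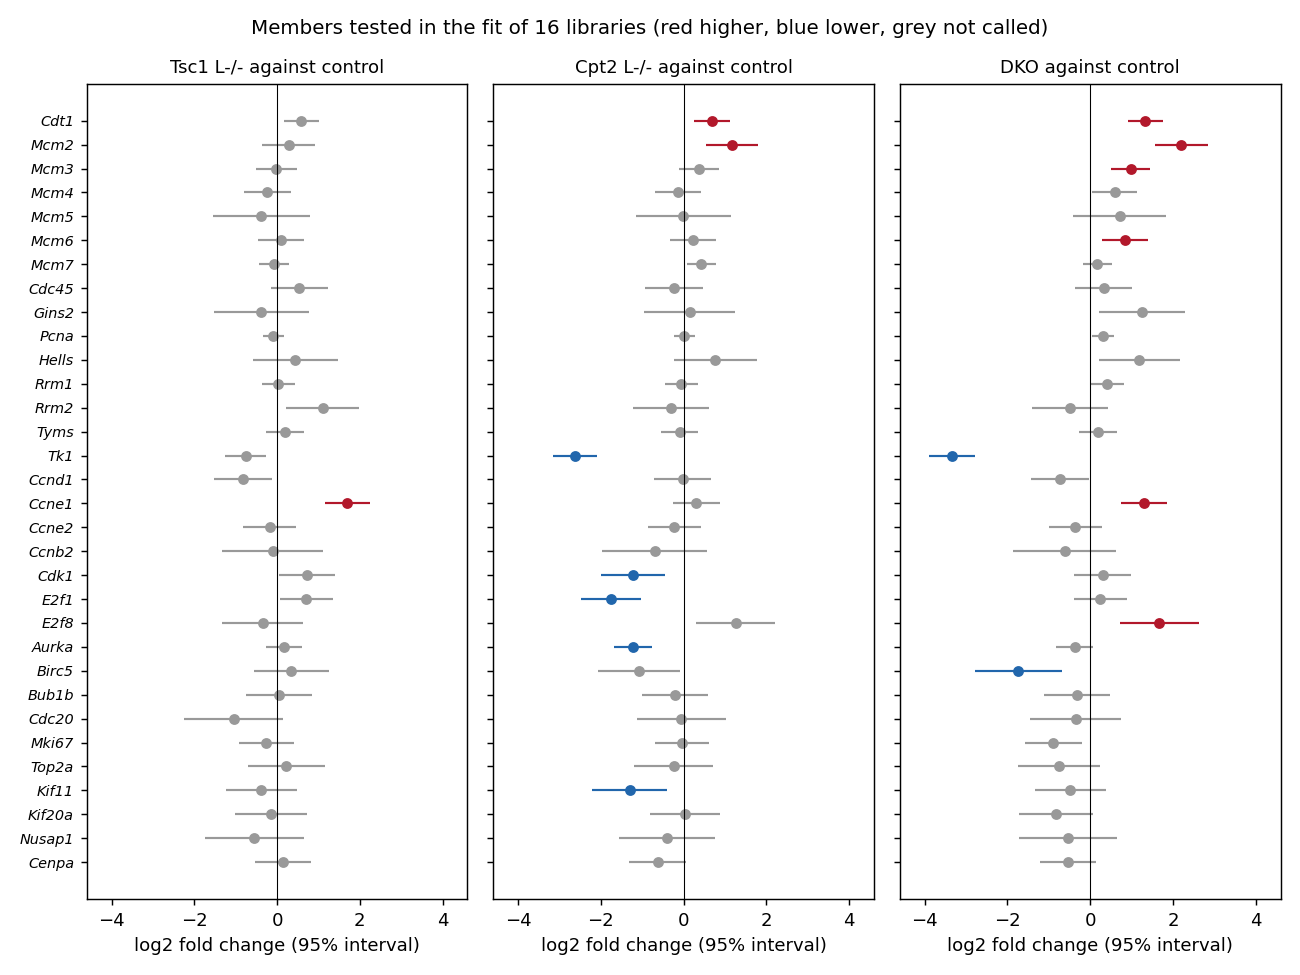
Log2 fold change with its 95% interval for the 32 tested genes for each of the 3 liver deletions relative to control (n = 4 per group), ordered by role from licensing at the top to the spindle at the bottom. Ccne1 alone was called in Tsc1 L-/-, Tk1 fell furthest in Cpt2 L-/- and DKO at log2 -2.63 and -3.33, and all 11 replication genes of the DKO panel lay above 0.

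Among the replication licensing and fork genes, Mcm2, Cdt1, Mcm3 and Mcm6 rose in DKO against control. Mcm2, a subunit of the replicative helicase (chr6:88883475-88898780, GRCm38), was at 1.15, 2.55, 3.70 and 5.87 CPM in the controls and at 4.24, 4.23, 3.69 and 3.94 in Tsc1 L-/-. It was at 7.51, 7.99, 5.41 and 8.97 CPM in Cpt2 L-/-, where the lowest library lay under the highest control. In DKO it was at 17.7, 14.4, 18.1 and 10.5 CPM, above every library of the other 3 groups. The rise was 2.23-fold in Cpt2 L-/- (log2 1.16, SE 0.32, adjusted p = 0.0108) and 4.6-fold in DKO (log2 2.20, SE 0.32, adjusted p = 5.43e-05). DKO stood 2.06-fold above Cpt2 L-/- (adjusted p = 0.0256) and 3.8-fold above Tsc1 L-/- (adjusted p = 0.000211). The DKO call against control kept its side of the threshold on leaving out any 1 of the 8 libraries, whereas the call against Cpt2 L-/- was lost for 5 of the 8, with an adjusted p between 0.0182 and 0.0890.

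Cdt1, the factor that brings the helicase to origins (chr8:122568015-122573128), had the same order of groups. It was at 3.14, 2.20, 3.75 and 4.99 CPM in control, 5.88, 4.71, 4.08 and 6.56 in Tsc1 L-/-, 6.02, 5.39, 5.11 and 6.24 in Cpt2 L-/- and 10.2, 8.60, 8.26 and 8.12 in DKO. All DKO libraries lay above all libraries of the other groups, and the Cpt2 L-/- libraries lay above the controls. The rise in DKO was 2.51-fold (log2 1.33, SE 0.22, adjusted p = 0.000136) and that in Cpt2 L-/- 1.6-fold (log2 0.68, SE 0.22, adjusted p = 0.0239). In Tsc1 L-/- the difference was 1.5-fold and missed the threshold (adjusted p = 0.121). The Cpt2 L-/- call was lost without Cpt2 L-/- replicate 1 or 4 or control replicate 1 or 2, with an adjusted p of at most 0.0603, and the DKO call against Cpt2 L-/- (1.57-fold, adjusted p = 0.0410) was lost on leaving out any of the 8 libraries.

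Mcm3 and Mcm6, further subunits of the helicase ring, followed in DKO. Mcm3 (chr1:20802968-20820312) was at 11.4, 7.10, 7.74 and 6.14 CPM in DKO against 3.20, 3.38, 3.70 and 6.33 in control, so that control replicate 4 lay within the DKO range. Its rise was 1.97-fold (log2 0.98, SE 0.24, adjusted p = 0.00463). Mcm6 (chr1:128331590-128359664) was at 10.7, 6.90, 7.22 and 4.33 CPM in DKO against 3.20, 3.93, 3.19 and 6.04, a rise of 1.81-fold (log2 0.85, SE 0.28, adjusted p = 0.0251). DKO replicate 1 was the highest library of its group for Mcm3, Mcm4, Mcm5, Mcm6 and Hells, and without it the Mcm6 call was lost (adjusted p = 0.109). The Mcm6 call was also lost without control replicate 1 (adjusted p = 0.0669) or control replicate 3 (adjusted p = 0.0725).

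Mcm4, Mcm5 and Mcm7 complete the ring. Mcm4 was at 8.13, 4.99, 6.24 and 3.04 CPM in DKO against 2.73, 3.004, 3.57 and 3.44 in Tsc1 L-/- (log2 0.83, SE 0.28, adjusted p = 0.0322) and 2.29, 3.17, 4.11 and 5.40 in control (log2 0.59, adjusted p = 0.104). Mcm5 ranged from 1.87 to 9.20 CPM in DKO and from 0.604 to 4.99 in control, and was called in no comparison. Mcm7, at 8.60 to 18.4 CPM over all 24 libraries, was not called in any comparison either, so that the 6 subunits of 1 complex differed from each other in what was called.

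Pcna, the sliding clamp (chr2:132249162-132253314), was the most abundant of the set. It was at 24.1, 21.8, 27.3 and 24.9 CPM in control, 20.005, 23.8, 25.5 and 22.6 in Tsc1 L-/-, 27.7, 28.2, 19.2 and 24.6 in Cpt2 L-/- and 31.8, 32.1, 31.5 and 25.2 in DKO. All DKO libraries but replicate 4 lay above every library of those groups. It was called in DKO against Tsc1 L-/- only (1.32-fold, log2 0.40, SE 0.13, adjusted p = 0.0253), and against control it missed the threshold (1.24-fold, adjusted p = 0.0701). Gins2, a GINS subunit, was at 0.520 to 1.6 CPM in DKO and 0.205 to 0.727 in Tsc1 L-/- (log2 1.64, SE 0.55, adjusted p = 0.0295). In the GENCODE annotation 67.3% of the exonic bases of Gins2 lie opposite exons of Gse1, so reads of those genes cannot be told apart if strand was not used in counting. Hells, a chromatin remodeler of S phase, and Cdc45 were called in no comparison, at 0.303 to 2.15 and 0.558 to 2.20 CPM.

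The role lists were chosen with earlier results of these data known, so shares by role are a description. As a group, 4 of the 11 tested replication genes rose in DKO against control and none fell. Beside them 19.3% of all genes were higher and 36.4% were called in either direction. All 11 fold changes lay above 0, with a median of 0.85 on the log2 scale against 0.02 over all genes. Against Tsc1 L-/-, 7 of 11 rose beside 16.9% of all genes, with a median of 0.76, and against Cpt2 L-/- 2 rose beside 10.9%, with a median of 0.62. In Tsc1 L-/- against control none was called and the median was -0.02. The calls of Mcm4, Mcm6, Gins2 and Pcna against Tsc1 L-/- were each lost for 5 or 6 of the 8 libraries left out, with adjusted p of up to 0.192. The summed level of the 12 genes was 49.9 to 74.8 CPM in control, 55.8 to 61.7 in Tsc1 L-/-, 62.1 to 79.6 in Cpt2 L-/- and 74.6 to 121 in DKO. The sum of 5 hepatocyte markers was 71892 to 83641 CPM in control. It lay below that, with no overlap, in Tsc1 L-/- (42184 to 61931), Cpt2 L-/- (33420 to 60632) and DKO (29925 to 34748). Alb alone had a mean of 43859 CPM in control, where the sum had 76160. Of the 5 markers 1 was called lower in Tsc1 L-/-, 3 in Cpt2 L-/- and 3 in DKO, and none higher. Ttr was at a mean of 3940 CPM in Tsc1 L-/- against 2917 in control. The part of this sum in the result was not tested. The T cell marker sum was 1.18 to 2.28 CPM in DKO and 2.53 to 4.59 in control. Of its 8 markers, none with a group mean above 0.949 CPM, 2 were tested and 1 was called lower. Cd3e went the other way, at a mean of 0.541 CPM in DKO and 0.352 in control. The macrophage sum was 157 to 272 CPM in DKO and 213 to 328 in control. Of the 7 macrophage markers 5 were called lower in DKO, while Cd68 was at a mean of 92.6 CPM against 8.53. All 6 stellate cell markers were called lower, with sums of 146 to 186 CPM against 228 to 290, and 3 of 5 endothelial markers were, with sums of 134 to 226 against 197 to 233. In DKO against Tsc1 L-/-, and also against Cpt2 L-/-, 5 of 7 macrophage markers were called lower and 1 higher. Stellate markers called lower were 1 of 6 and 2 of 6, and endothelial markers 1 of 5 and 2 of 5. The part of these markers in the result was not tested.

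**Figure D3:**
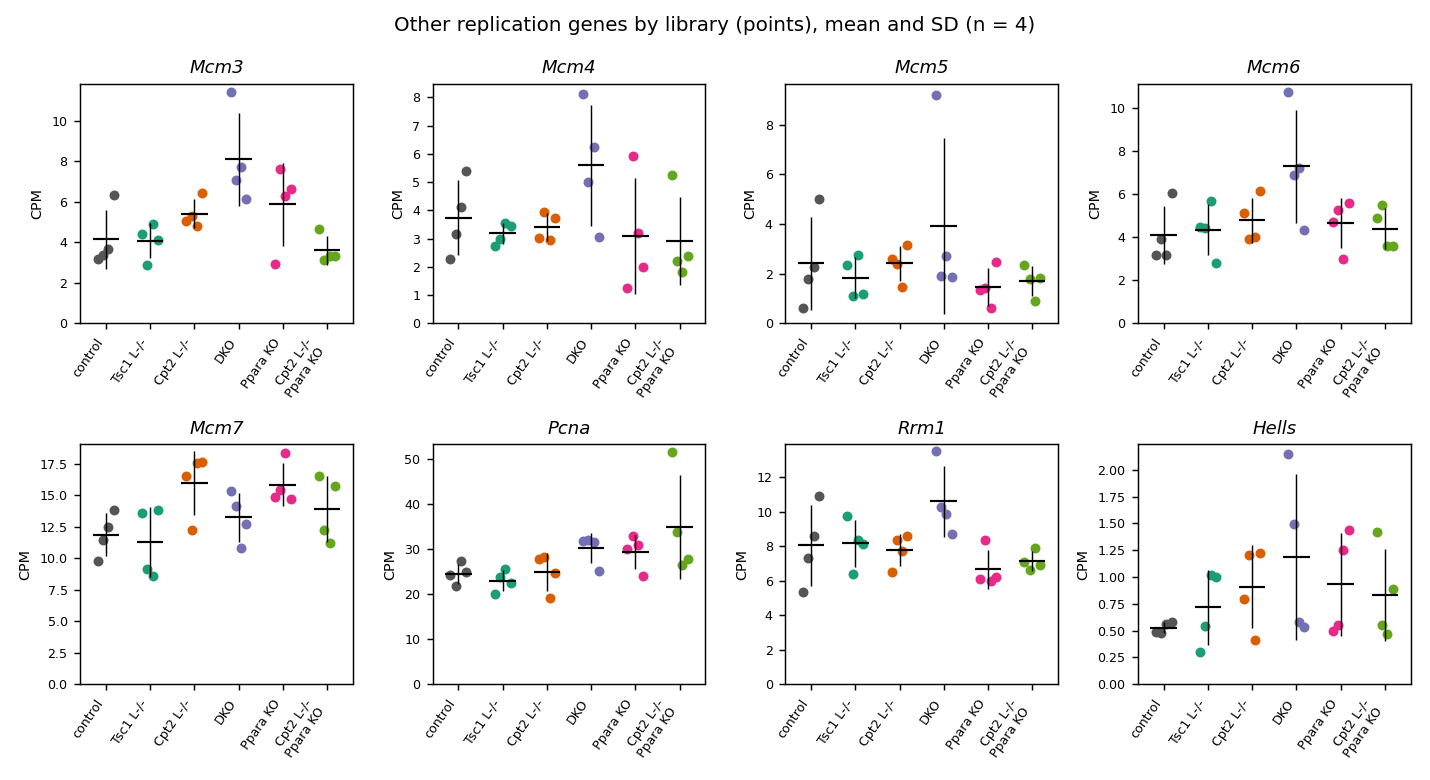
CPM of 8 replication genes by library (points) in the 6 groups, with the mean (bar) and SD (line, n = 4). DKO replicate 1, the first DKO point, was highest for Mcm3 at 11.4 CPM and Mcm5 at 9.20, while Mcm7 stayed between 8.60 and 18.4 CPM in all libraries.

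The bases ahead of the start site are shown for 4 licensing genes that rose in DKO, for E2f8, which rose with them, and for Cdk1, which fell in Cpt2 L-/-. The sequences are from RefSeq (GRCm38.p6), run 5′ to 3′ on the gene's strand, begin 200 bases before the RefSeq start and end before the first base of the gene as the RefSeq or the count table's annotation gives it. Capitals mark 3 motifs of cell cycle promoters found by letters on both strands. The first is CCAAT, bound by NF-Y. The CHR element was searched as TTTGAA and also as TTCGAA. The E2F core was searched as TTCCCGC, then in the form TTGGCGC, then as the form TTCGCGC and last as the form TTGCCGC. Copies of the E2F core on opposite strands can overlap each other, and one form can overlap CCAAT.
Mcm2, chr6:88898781-88898980, minus strand: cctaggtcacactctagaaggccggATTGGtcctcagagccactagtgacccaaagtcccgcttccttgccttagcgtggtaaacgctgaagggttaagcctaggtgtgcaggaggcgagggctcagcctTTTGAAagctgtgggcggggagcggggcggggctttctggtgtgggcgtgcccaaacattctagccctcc
Mcm3, chr1:20820313-20820512, minus strand: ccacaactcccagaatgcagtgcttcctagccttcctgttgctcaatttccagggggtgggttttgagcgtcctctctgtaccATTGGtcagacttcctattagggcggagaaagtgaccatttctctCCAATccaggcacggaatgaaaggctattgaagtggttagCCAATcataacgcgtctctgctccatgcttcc
Mcm6, chr1:128359706-128359905, minus strand: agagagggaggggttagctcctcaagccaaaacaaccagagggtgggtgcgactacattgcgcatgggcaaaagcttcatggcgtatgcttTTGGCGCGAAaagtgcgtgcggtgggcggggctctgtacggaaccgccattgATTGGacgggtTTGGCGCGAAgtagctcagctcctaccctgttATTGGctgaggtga
Cdt1, chr8:122567815-122568014, plus strand: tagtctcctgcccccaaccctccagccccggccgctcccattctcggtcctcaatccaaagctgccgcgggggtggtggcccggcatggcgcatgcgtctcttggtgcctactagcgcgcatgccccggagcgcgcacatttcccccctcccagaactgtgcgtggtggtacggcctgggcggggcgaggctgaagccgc
E2f8, chr7:48881597-48881796, minus strand: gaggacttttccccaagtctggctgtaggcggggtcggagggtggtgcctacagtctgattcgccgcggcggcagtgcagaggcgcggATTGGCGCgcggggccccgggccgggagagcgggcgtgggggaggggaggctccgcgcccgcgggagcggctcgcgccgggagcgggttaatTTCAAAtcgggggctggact
Cdk1, chr10:69352939-69353112, minus strand: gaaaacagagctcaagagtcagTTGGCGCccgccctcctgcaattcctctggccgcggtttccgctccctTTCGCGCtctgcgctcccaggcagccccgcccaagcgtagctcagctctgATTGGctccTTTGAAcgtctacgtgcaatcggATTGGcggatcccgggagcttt

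Mcm6 held 4 E2F core matches in these bases, as overlapping pairs on opposite strands, and 2 CCAAT. Cdk1 and E2f8 each held all 3 motifs, Cdk1 with 2 E2F core matches, 2 CCAAT and 1 CHR and E2f8 with 1 of each. Mcm3 held 3 CCAAT and Mcm2 1 CCAAT and 1 CHR, and Cdt1, which was also higher in DKO, held none of these letters. A promoter window of 250 bases before to 50 after the start was found for 33 of the 42 genes. CCAAT was found in 24 of the 33 (72.7%) and in 37.4% of all 32851 windows, the CHR letters in 16 (48.5%) and 19.2%, and the E2F core in 13 (39.4%) and 9.57%. A member was counted if any window listed for it held the motif, whereas the share over all was counted per window. The genes were chosen by name for their cell cycle role, so this is a description of the set.

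Of the 4 deoxynucleotide enzymes, Tk1 was the only one called in Cpt2 L-/- or DKO against control. Tk1, thymidine kinase of the salvage pathway (chr11:117815526-117826092), had the largest fall of the 32 tested genes in both comparisons. It was at 33.5, 18.3, 34.9 and 22.7 CPM in control and 9.52, 20.3, 20.6 and 14.3 in Tsc1 L-/-. It was at 3.99, 3.42, 6.41 and 3.90 CPM in Cpt2 L-/- and 2.82, 3.09, 2.15 and 2.67 in DKO. Every library of the Cpt2-deleted groups lay below every control and Tsc1 L-/- library. The fall was 6.19-fold in Cpt2 L-/- (log2 -2.63, SE 0.27, adjusted p = 3.02e-06), 10.0-fold in DKO (log2 -3.33, SE 0.28, adjusted p = 2.92e-07) and 5.93-fold in DKO against Tsc1 L-/- (adjusted p = 4.64e-06). Tsc1 L-/- itself was 1.69-fold below control and missed the threshold (adjusted p = 0.0809).

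Tk1 shares 83 exonic bases, 1.6% of its own, with the start of Afmid on the opposite strand, a kynurenine pathway enzyme. Afmid was chosen after its values were seen. It was at 39.3, 35.3, 33.3 and 23.5 CPM in control, 5.27, 9.06, 11.6 and 6.35 in Cpt2 L-/- and 4.86, 3.50, 3.32 and 4.01 in DKO. The neighbours thus fell in the same groups, Afmid by 4.09-fold in Cpt2 L-/- (adjusted p = 4.78e-06) and by 8.26-fold in DKO (adjusted p = 1.10e-07). The share of Tk1 reads that could come from the common bases was not tested.

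**Figure D4:**
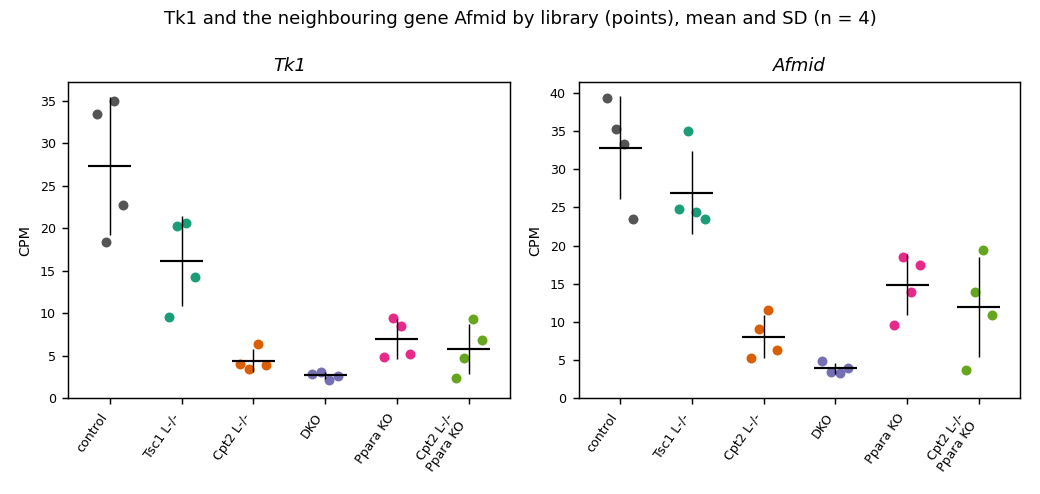
CPM of Tk1 and of Afmid, which overlaps it at its start on the opposite strand, by library (points) in the 6 groups, with the mean (bar) and SD (line, n = 4). Both were lowest in DKO, at means of 2.68 and 3.92 CPM, against 27.4 and 32.8 in control.

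Rrm1 and Rrm2 are the subunits of ribonucleotide reductase, and Tyms makes thymidylate. Rrm1 ranged from 5.37 to 13.5 CPM over all libraries and was called in no comparison. Rrm2 was at 0.606, 3.55, 4.33 and 3.75 CPM in Tsc1 L-/- and at 1.36, 1.08, 0.715 and 0.854 in DKO, where it was lower (2.997-fold, log2 -1.58, SE 0.46, adjusted p = 0.013). Tsc1 L-/- replicate 1 lay below all 4 DKO libraries, against the direction of the other 3. Tyms, at 3.10 to 5.82 CPM in these 16 libraries, was not called among them.

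Among the cyclins, Ccne1 was higher after Tsc1 loss with and without Cpt2. Ccne1 (chr7:38097984-38107534) was at 1.39, 0.964, 0.668 and 1.51 CPM in control, 2.97, 3.48, 3.95 and 4.25 in Tsc1 L-/-, 1.76, 1.204, 1.29 and 1.34 in Cpt2 L-/- and 3.33, 3.24, 2.28 and 2.19 in DKO. All 8 Tsc1-deleted libraries lay above all 8 control and Cpt2 L-/- libraries. Ccne1 was at 1.17, 4.18, 2.08 and 1.85 CPM in Ppara KO and 2.05, 2.99, 3.25 and 1.26 in Cpt2 L-/- Ppara KO, overlapping the Tsc1-deleted groups, and was not called in the Ppara comparisons. The rise was 3.24-fold in Tsc1 L-/- (log2 1.69, SE 0.28, adjusted p = 0.00121), 2.47-fold in DKO against control (log2 1.30, SE 0.28, adjusted p = 0.00147) and 1.99-fold in DKO against Cpt2 L-/- (log2 0.996, SE 0.27, adjusted p = 0.0175). The last call was lost without DKO replicate 1 or 2 or Cpt2 L-/- replicate 3, with an adjusted p of at most 0.0589.

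Ccnd1, cyclin D1, the growth-factor-responsive G1 cyclin, varied within groups. It was at 11.3, 18.2, 23.0 and 33.6 CPM in control, 18.3, 5.53, 14.1 and 10.6 in Tsc1 L-/-, 16.2, 20.5, 23.2 and 25.2 in Cpt2 L-/- and 18.6, 10.9, 8.45 and 13.2 in DKO. The groups overlapped, and Ccnd1 was not called in Tsc1 L-/- (log2 -0.82, 95% interval -1.52 to -0.12, adjusted p = 0.201) or in DKO (log2 -0.73, adjusted p = 0.12). Without control replicate 1 the DKO difference was called (adjusted p = 0.0459). By the annotation 23.4% of its exonic bases lie opposite LTO1. Ccne2, cyclin E2, was at 0.845 to 2.34 CPM in these 16 libraries and Ccnb2, cyclin B2, at 0.0588 to 0.780, and neither was called.

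Cdk1, E2f1 and Aurka fell in Cpt2 L-/- and stood higher in DKO than in Cpt2 L-/-. Both comparisons use the same Cpt2 L-/- libraries and are not independent. Cdk1, the mitotic kinase (chr10:69336635-69352938), was at 1.21, 0.551, 0.873 and 0.871 CPM in control and 0.373, 0.380, 0.294 and 0.446 in Cpt2 L-/-. In DKO it was at 1.64, 1.08, 0.585 and 0.961 CPM, above every Cpt2 L-/- library and overlapping the controls. The fall in Cpt2 L-/- was 2.33-fold (log2 -1.22, SE 0.39, adjusted p = 0.0238) and DKO stood 2.87-fold above Cpt2 L-/- (log2 1.52, SE 0.39, adjusted p = 0.0114). The fall was lost without Cpt2 L-/- replicate 1 or 3 or control replicate 1, with an adjusted p of at most 0.0893, and the difference from DKO was kept in all 8 such fits. By edgeR Cdk1 was not called in Tsc1 L-/- against control (log2 0.72, adjusted p = 0.249). Nor was its interaction of the Tsc1 and Cpt2 losses (log2 0.80, adjusted p = 0.443).

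E2f1, the activator of S phase genes (chr2:154559407-154569892), had the same order of Cpt2 L-/- below control and DKO. It was at 1.87, 1.998, 3.39 and 2.96 CPM in control, 3.82, 4.51, 4.08 and 4.25 in Tsc1 L-/-, 0.479, 1.46, 0.588 and 0.557 in Cpt2 L-/- and 3.61, 3.76, 3.25 and 1.44 in DKO. Tsc1 L-/- lay above and Cpt2 L-/- below every control library. The fall in Cpt2 L-/- was 3.36-fold (log2 -1.75, SE 0.37, adjusted p = 0.00142), and DKO stood 3.999-fold above Cpt2 L-/- (SE of log2 0.36, adjusted p = 0.00148). The difference of Tsc1 L-/- from control was not called (adjusted p = 0.227), and the interaction was log2 1.30 (SE 0.49, unadjusted p = 0.0157, adjusted p = 0.157). Both calls were kept on leaving out any 1 library.

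Aurka, the centrosomal Aurora kinase (chr2:172356190-172370535), was the only mitotic kinase with a median above 1 CPM. It was at 3.62, 4.75, 2.93 and 2.79 CPM in control, 4.43, 4.10, 3.25 and 3.94 in Tsc1 L-/-, 1.38, 1.52, 1.47 and 1.67 in Cpt2 L-/- and 2.99, 3.29, 2.34 and 2.03 in DKO. Cpt2 L-/- lay below every other library of these groups. The fall was 2.32-fold (log2 -1.21, SE 0.23, adjusted p = 0.000728) and DKO stood 1.79-fold above it (log2 0.84, SE 0.24, adjusted p = 0.0201), a call lost without DKO replicate 1 or 2 or Cpt2 L-/- replicate 3.

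E2f8, the atypical E2F repressor (chr7:48866429-48881596), was higher in DKO than in control, and in Cpt2 L-/- its fold change was opposite in sign to that of E2f1. It was at 6.04, 5.30, 21.4 and 10.5 CPM in control and 4.18, 2.66, 14.5 and 12.7 in Tsc1 L-/-, a wide spread in both groups. It was at 30.0, 24.5, 28.2 and 21.9 CPM in Cpt2 L-/- and 33.9, 36.1, 33.7 and 34.0 in DKO, with every one of those 8 libraries above the highest control. The rise in DKO was 3.19-fold (log2 1.67, SE 0.49, adjusted p = 0.0162), and 4.07-fold against Tsc1 L-/- (log2 2.03, SE 0.50, adjusted p = 0.00676). In Cpt2 L-/- it was 2.39-fold and missed the threshold (log2 1.26, SE 0.48, adjusted p = 0.0637), although the groups did not overlap. E2f8 has 11.2% of its exonic bases opposite the transcript Gm2788.

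Of the 10 tested genes on the lists of mitotic kinases and checkpoint and of spindle and chromosomes, none rose in DKO against control and Birc5 fell, beside 19.3% of all genes higher and 17.1% lower. All 10 fold changes were below 0, and their difference from the replication genes was not tested. Cdk1, placed with the cyclins, was at log2 0.30 in DKO against control (adjusted p = 0.538). In the same comparison 6 of 6 stellate, 5 of 7 macrophage and 3 of 5 endothelial markers were called lower. Cd68, a macrophage marker, was called higher, and 2 endothelial fold changes lay above 0. The B cell sum was 1.34 to 3.39 CPM in DKO against 5.58 to 38.2 in control. Of its 3 tested markers 1 was called lower, and Ighm alone had a mean of 10.1 CPM in control and 1.12 in DKO. The part of these in the values was not tested. Birc5, survivin of the chromosomal passenger complex, was at 1.21, 0.482, 0.925 and 0.465 CPM in control and 0.226, 0.309, 0.260 and 0.107 in DKO (3.33-fold, log2 -1.73, SE 0.53, adjusted p = 0.017). It was at 0.364, 1.64, 1.02 and 0.937 CPM in Tsc1 L-/-, above DKO in all 4 libraries (4.23-fold, adjusted p = 0.00566). The first call was lost without DKO replicate 4 (adjusted p = 0.0566) or control replicate 1 (adjusted p = 0.0649).

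Mki67 was at 0.785, 1.38, 1.18 and 0.929 CPM in control and at 0.678, 0.412, 0.585 and 0.587 in DKO, all below the controls, and missed the threshold (log2 -0.89, 95% interval -1.58 to -0.21, adjusted p = 0.0531). It was 0.410 to 1.15 CPM in Tsc1 L-/- and 0.941 to 1.14 in Cpt2 L-/-. Top2a was at 0.620 to 0.976 CPM in control and 0.206 to 0.903 in DKO, and was not called. Kif11, the spindle motor Eg5, fell in Cpt2 L-/- from 1.03, 0.895, 0.976 and 0.697 CPM to 0.213, 0.317, 0.705 and 0.223 (2.46-fold, log2 -1.30, SE 0.46, adjusted p = 0.0402), a call lost for 7 of the 8 libraries left out, Cpt2 L-/- replicate 3 being the exception. Cenpa, the centromeric histone, was at 1.94 to 4.81 CPM in Tsc1 L-/- and 2.73 to 3.39 in control and was not called. Bub1b, Cdc20, Kif20a and Nusap1, at most 1.25 CPM in any library, were called in no comparison.

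**Figure D5:**
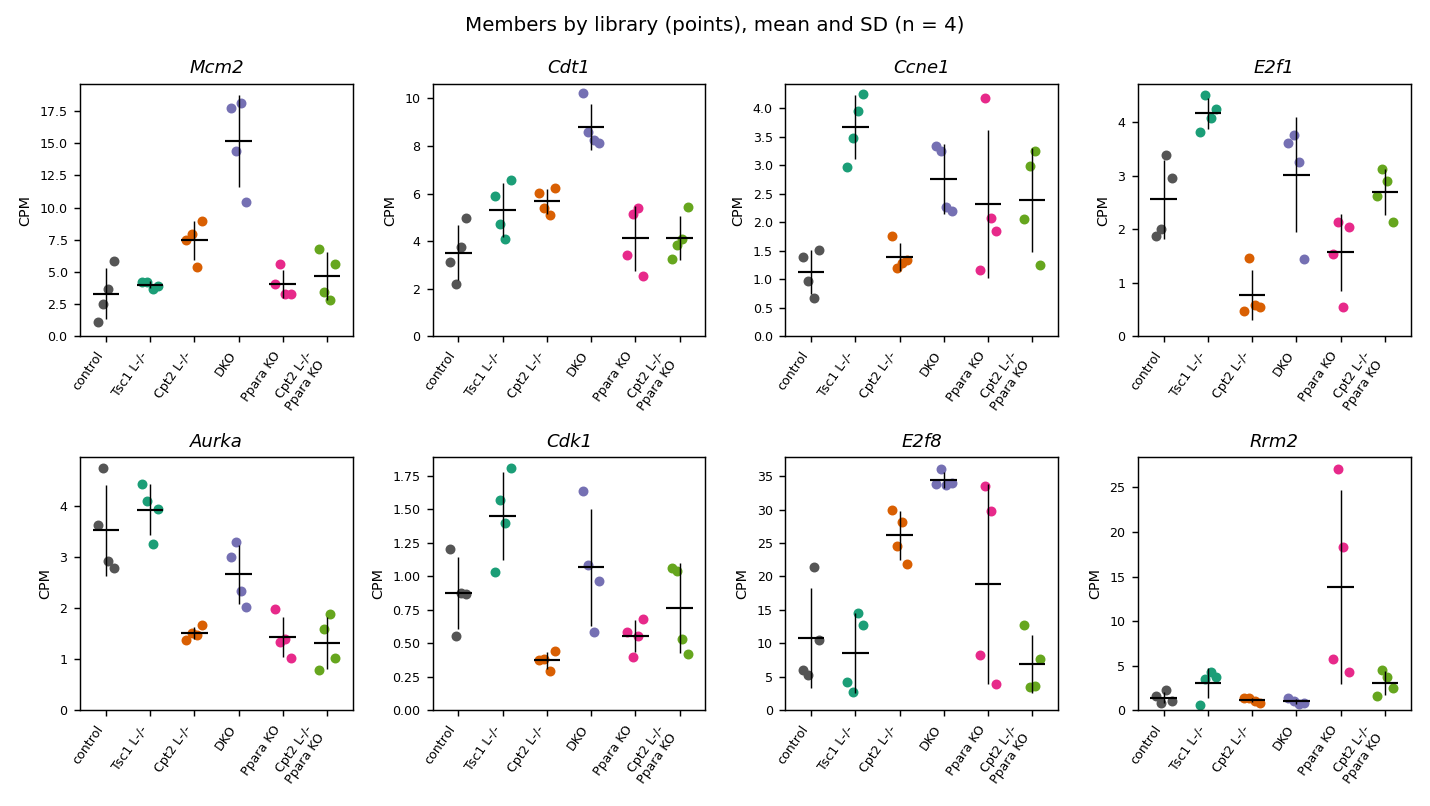
CPM of 8 genes by library (points) in the 6 groups, with the mean (bar) and SD (line, n = 4). Mcm2 and Cdt1 were highest in DKO, Ccne1 was higher in both Tsc1-deleted groups than in control and Cpt2 L-/-, E2f1, Aurka and Cdk1 were lowest among the first 4 groups in Cpt2 L-/-, and E2f8 and Rrm2 spread widely in Ppara KO, from 3.90 to 33.5 and from 4.24 to 27.1 CPM.

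Loss of Ppara was compared with control over 28 tested genes, of which 1 rose and 2 fell, beside 27.5% of 12955 genes, 14.8% higher and 12.7% lower. The groups did not overlap for 5 of the 28, beside 30.8% of all genes. Rrm2 rose 9.51-fold (log2 3.25, SE 0.61, adjusted p = 0.00451), from 1.57, 0.827, 2.26 and 0.987 CPM to 5.72, 27.1, 18.3 and 4.24. Tk1 fell 3.97-fold to 4.82, 9.39, 8.53 and 5.20 CPM (adjusted p = 0.00118), and Aurka 2.43-fold to 1.98, 1.34, 1.39 and 1.03 (adjusted p = 0.0134). None of the 9 tested replication genes was called, and their median was 0.21 on the log2 scale against 0.02 over all genes. All 3 calls held without Ppara KO replicate 1, when 1 gene was called higher and 3 lower.

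The Ppara KO libraries disagreed with each other over 3 abundant members. E2f8 was at 8.33, 33.5, 29.8 and 3.90 CPM and Rrm2, as above, was highest in the same replicates 2 and 3. Ccnd1 was at 28.3, 4.89, 4.02 and 30.1 CPM, lowest in those 2 replicates. E2f8 and Ccnd1 were not called in this comparison. Ppara was at 44.6, 13.6, 13.2 and 37.9 CPM in these libraries, also lowest in replicates 2 and 3, and its part in these values was not tested. The erythroid marker sum was at 428, 1695, 356 and 1088 CPM, highest in replicates 2 and 4.

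When Ppara was lost on top of Cpt2, 3 of 28 tested genes rose and 1 fell, beside 13% of 12936 genes, 6.88% higher and 6.1% lower. The 1679 calls behind the 13% became between 625 and 2541 when 1 library was left out. The groups did not overlap for 6 of the 28, beside 23% of all genes. E2f1 rose 3.50-fold, to 2.62, 3.13, 2.90 and 2.14 CPM (log2 1.81, SE 0.38, adjusted p = 0.0146). Rrm2 rose 2.65-fold, to 1.56, 4.52, 3.78 and 2.47 CPM from 1.33, 1.39, 1.06 and 0.835 (adjusted p = 0.0324), and Ccne2 2.15-fold, to 3.54, 4.17, 3.19 and 1.77 from 1.17, 1.27, 1.65 and 1.73 (adjusted p = 0.0436). Ccne2 has 17.4% of its exonic bases opposite Ints8. E2f8 fell 3.81-fold, to 12.8, 3.41, 3.66 and 7.72 CPM (log2 -1.93, SE 0.38, adjusted p = 0.0103), below every Cpt2 L-/- library. All 4 E2f1 values and 2 of the 4 E2f8 values lay within the range of the controls. Without the library labelled Cpt2 L-/- Ppara KO replicate 1, 5 genes were called, as Ccne2 was lost (adjusted p = 0.0515), which happened for 7 of the 8 libraries left out (adjusted p of up to 0.122), and Mcm2 (log2 -0.90, adjusted p = 0.0398) was among 3 lower. The count was 1 without Cpt2 L-/- replicate 3 or 4, and over all 8 libraries left out the Rrm2 call was lost for 6 and the E2f1 call for 2. The erythroid marker sum was 507, 591, 820 and 357 CPM in Cpt2 L-/- Ppara KO and 136, 182, 129 and 345 in Cpt2 L-/-, with 2 of the 4 tested markers called higher, and its part in these values was not tested.

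Mcm2 was at 6.80, 3.48, 2.84 and 5.63 CPM and Cdt1 at 3.26, 3.82, 4.08 and 5.44 in Cpt2 L-/- Ppara KO, and no licensing gene was called with all libraries. Against Ppara KO, 0 of 26 tested genes were called by edgeR, beside 0.868% of 12784 genes, 0.462% higher and 0.407% lower. Those 111 calls over all genes became between 2 and 725 when 1 library was left out, and 12 without Cpt2 L-/- Ppara KO replicate 1, when no member was called. At an unadjusted p under 0.05 there were 4, beside 30% of all genes, and DESeq2 called 2. The groups did not overlap for 3 of the 26, beside 18.9% of all genes. Without Ppara KO replicate 1, edgeR called 2, 1 in each direction. The interaction of the Cpt2 and Ppara losses, a test added after the data were seen, called 5 of 32 genes, 4 above and 1 below 0, beside 24% of 13615, 12% in each direction. E2f1 (log2 2.53, SE 0.58, adjusted p = 0.00605), Tk1 (2.39, SE 0.49, adjusted p = 0.00335), Cenpa (1.55, SE 0.42, adjusted p = 0.0145) and Tyms (1.30, SE 0.42, adjusted p = 0.0332) were above the sum of the single losses, and E2f8 (-2.69, SE 0.83, adjusted p = 0.0283) below it. Without Cpt2 L-/- Ppara KO replicate 1, 6 genes were called, 4 above and 2 below 0, and without Ppara KO replicate 1 8 were, 5 above and 3 below. The Tyms call was lost for 10 of the 16 libraries left out (adjusted p of up to 0.0761) and that of E2f8 for 7 (adjusted p of up to 0.0650).

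Tk1 fell in each single loss, and in the combined loss it was at 2.34, 4.73, 9.34 and 6.79 CPM, overlapping both. Tyms was at 3.33, 2.05, 2.22 and 1.30 CPM in Ppara KO and 7.37, 5.35, 3.66 and 4.37 in Cpt2 L-/- Ppara KO, with no overlap. Cenpa was at 1.98, 2.13, 1.53 and 0.957 CPM and at 3.40, 3.48, 2.66 and 2.93 in the same groups.

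A list of 160 other cell cycle genes in the table was set beside the 42. In DKO against control 31 of 121 tested rose and 11 fell, 34.7% called beside 36.4% of all genes, and in Cpt2 L-/- 15 rose and 17 fell, 26.4% beside 31%. In Tsc1 L-/- 8 rose and 2 fell, 8.26% beside 6.64%, and in Ppara KO 10 of 110 rose and 10 fell, 18.2% beside 27.5%. Myc, the growth transcription factor, rose from 7.10 CPM in control to 30.4 in Cpt2 L-/-, 29.1 in DKO and 30.3 in Ppara KO (adjusted p = 0.0003, 0.00029 and 0.002). Mcm10, an initiation factor outside the helicase ring, fell from 85.0 CPM in control to 26.8 in Cpt2 L-/- and 13.8 in both DKO and Ppara KO (adjusted p = 0.00011, 2.1e-06 and 0.0012). Spc24, a kinetochore subunit, fell from 12.0 CPM to 3.82 in Cpt2 L-/- and 2.16 in DKO, and Cenpt, a centromere protein, rose from 1.34 to 6.61 in DKO (adjusted p = 4e-05, 9.7e-07 and 2.1e-06). Cdkn1a, the p21 inhibitor of Cdk2, was at 29.6 CPM in control, 218 in Ppara KO (SD 159, adjusted p = 0.032) and 103 in DKO, where it was above the 26.3 of Tsc1 L-/- (adjusted p = 0.045).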

How the data were processed

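Per the labels, total RNA from fasted liver was made into stranded mRNA libraries and read as single 75 bp reads. The deposited read counts per gene were used for all tests; the submitters' processing notes name STAR 2.5 and HTSeq 0.6.1 among other tools, without roles or the strand setting of counting. The notes name builds mm8 and mm9, whereas the coordinates in the table match GRCm38. The deposited FPKM equal counts over gene length and library total (largest difference 5.00e-06) and served only to order genes by level. Tests used edgeR 4.0.16 (quasi-likelihood, robust, TMM, filterByExpr with a minimum count of 10) in R 4.3.3, with one fit of 16 libraries for control, Tsc1 L-/-, Cpt2 L-/- and DKO, a fit of 8 for each Ppara comparison and, for the Cpt2 and Ppara interaction, one of the 16 libraries of control, Cpt2 L-/-, Ppara KO and Cpt2 L-/- Ppara KO. DESeq2 1.42.0, other filters, fits, a replicate block and leaving out each library were the alternatives. The fitting code was tested on simulated data. The 42 genes, the role lists and the tests were chosen with earlier results of these data known. All 42 genes are accounted for, and those called were named, with at most 6 in each direction per comparison described by size of change, plus Ccnd1, Mki67, Top2a, Cdk1, Ccnb1, Pcna and Mcm2. Of the other cell cycle list, the rule took at most 4 called genes in each direction per comparison by size of change, and some of these are described. Only the labels mark the libraries of a group as separate samples, so p-values measure the spread between these libraries. No pair of libraries of the same group agreed within sampling noise.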

Additional observations from a re-analysis of the deposited data

Results flagged for a closer look

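Single libraries stood apart from the other 3 of their group in 11 of 138 gene and group pairs tested, where chance flags about 1 in 20. In control, Cenpa reached 3.39 CPM in replicate 3 and Mcm3 6.33 CPM in replicate 4, the library with the raised B cell markers. In Tsc1 L-/-, Gins2 was 0.727 CPM in replicate 1. In Cpt2 L-/-, Cenpa was 0.999 CPM in replicate 3 and E2f1 1.46 CPM in replicate 2. In DKO, E2f8 was 36.1 CPM in replicate 2 and Pcna 25.2 CPM in replicate 4. In Ppara KO, Mki67 was 3.21 CPM in replicate 4. In Cpt2 L-/- Ppara KO, Mcm3 was 4.68 CPM and Mcm4 5.24 CPM in replicate 1, the library whose Tsc1, Cpt2 and Ppara counts differ from its group, and Ccnb1 was 0.473 CPM in replicate 3.

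The effect of Cpt2 loss differed with and without Ppara in 5 of 32 genes by the interaction term, beside 24% of all genes. On the log2 scale it was 2.53 for E2f1, 2.39 for Tk1, 1.55 for Cenpa, 1.30 for Tyms and -2.69 for E2f8. E2f8 had 12.8 CPM in the library labelled Cpt2 L-/- Ppara KO replicate 1 and 3.41 to 7.72 in the others, and its interaction fell short of the threshold for 7 of the 16 libraries left out, among them Ppara KO replicate 2 (adjusted p = 0.0619) and 3 (adjusted p = 0.0650), the Ppara KO libraries where E2f8 was highest. That of Tyms did so for 10 of 16.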

How the results depend on the processing

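Of 1529 results for single genes under the alternatives, 1393 kept their side of the threshold, 125 lost the call and 11 gained it. The 1529 also hold genes not called in the main fit, and only called genes can lose a call. The share kept therefore does not measure how stable the calls were. No called difference changed direction, while 34 values of differences that were not called changed sign, such as Ccnd1 in Cpt2 L-/- against control, from -0.02 to 0.31 on the log2 scale without control replicate 4. By DESeq2, 2 genes were called in Tsc1 L-/- against control, 5 in Ppara KO against control and 2 in Cpt2 L-/- Ppara KO against Ppara KO. With all 24 libraries in one fit, 2 were called in DKO against Cpt2 L-/-, 7 in DKO against Tsc1 L-/-, 5 in Ppara KO against control, 3 in Cpt2 L-/- Ppara KO against Ppara KO and 8 for the Cpt2 and Ppara interaction, which gave 3 with no filter on low counts. Requiring at least a 2-fold change left 3 in DKO against Cpt2 L-/- and 6 against Tsc1 L-/-. The causes were not tested, other than the narrower criterion itself. With each library left out in turn, the counts ranged from 1 to 2 for Tsc1 L-/-, 4 to 7 for Cpt2 L-/- and 7 to 10 for DKO against control, 2 to 6 for DKO against Cpt2 L-/-, 7 to 11 for DKO against Tsc1 L-/-, 0 to 1 for the Tsc1 and Cpt2 interaction, 3 to 4 for Ppara KO against control, 1 to 5 for Cpt2 L-/- Ppara KO against Cpt2 L-/-, 0 to 2 against Ppara KO and 3 to 8 for the Cpt2 and Ppara interaction.

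Over all genes, the 906 calls in Tsc1 L-/- against control became 400 with 24 libraries in the fit and 466 with only those groups. With 24 libraries the calls went from 4235 to 2798 for Cpt2 L-/- against control, from 2494 to 1065 for DKO against Cpt2 L-/-, from 324 to 65 for the Tsc1 and Cpt2 interaction (752 by DESeq2) and from 1679 to 3239 for Cpt2 L-/- Ppara KO against Cpt2 L-/- (2862 by DESeq2). Leaving out 1 library moved the 1679 to between 625 (without Cpt2 L-/- replicate 3) and 2541 (without Cpt2 L-/- Ppara KO replicate 4). The 111 calls in Cpt2 L-/- Ppara KO against Ppara KO became 368 with no filter, 2028 by DESeq2, 4311 with 24 libraries and 916 with the replicate block. Requiring a 2-fold change left 368 in Tsc1 L-/-, 1457 in Cpt2 L-/-, 1920 in DKO and 1800 in Ppara KO against control, 700 in DKO against Cpt2 L-/- and 1543 against Tsc1 L-/-, 188 for the Tsc1 and Cpt2 interaction and 965 in Cpt2 L-/- Ppara KO against Cpt2 L-/-, from 4972 in DKO and 3559 in Ppara KO against control and 4392 in DKO against Tsc1 L-/-. Without control replicate 4, chosen after seeing the data, 2 genes were called in Tsc1 L-/-, 7 in Cpt2 L-/-, 10 in DKO and 3 in Ppara KO against control.

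The replicate numbers did not pair the libraries, since the median correlation of same-numbered libraries lay between -0.04 and 0.07. With the numbers as a replicate block, 1 gene was called in Cpt2 L-/- Ppara KO against Ppara KO, and Mcm4 and Mcm6 in DKO against Tsc1 L-/-, Ccne2 in Cpt2 L-/- Ppara KO against Cpt2 L-/- and E2f8 in the Cpt2 and Ppara interaction lost their calls. E2f1 in Cpt2 L-/- Ppara KO against Cpt2 L-/- was lost without Cpt2 L-/- replicate 3 (adjusted p = 0.0572) or 4 (adjusted p = 0.0547), and Rrm2 there without 6 of the 8 libraries (adjusted p of at most 0.0994). Counting the bases before the start only, CCAAT was in 72.7%, the CHR letters in 36.4% and the E2F core in 33.3% of the 33 genes. Over all windows, counted singly, the shares were 33.8%, 17.1% and 7.89%. The filter on low counts left 10 genes, none above 1.25 CPM in any library, out of the fit without Ppara KO groups.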
